A study of Mus musculus with 6 samples.

Results

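The guanylate-binding proteins (Gbp) are large GTPases whose genes are switched on by interferons. The 10 mouse genes Gbp2, Gbp2b, Gbp3, Gbp4, Gbp5, Gbp6, Gbp7, Gbp8, Gbp9 and Gbp10 were taken by their symbols, as 10 of the 24537 rows of the table. The family was chosen by the TPM difference of its members between the KO and WT libraries described next, so that difference is given as a description and carries no test. The libraries hold RNA of regulatory T cells (Tregs), CD4 T cells that hold immune responses in check, from the colon of mice with colitis. The colitis was induced with TNBS, a hapten that was put on the skin (150 µl at 1%) and 7 days later given into the rectum (100 µl at 2.5%). The label of 3 libraries gives a REV-ERB knockout (KO) and that of the other 3 a wild type (WT), and all 6 came from mice with TNBS colitis. REV-ERBα is a nuclear receptor of the circadian clock that represses transcription. The sources used here do not give which REV-ERB gene was removed, in which cells or by which Cre driver, the age of the mice, or the markers used to sort the cells.

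In mouse cells, interferon gamma binds a receptor of the chains Ifngr1 and Ifngr2, which signals through the kinases Jak1 and Jak2. Gamma-activated sequences (GAS) and interferon-stimulated response elements (ISRE), which the induced factor Irf1 binds, both control Gbp genes. The Gbp proteins bind GTP, assemble on the membranes around intracellular microbes, and help to open these compartments and to activate inflammasomes. They are best known in macrophages and epithelial cells, and T cells carry them too.

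The transcript levels are TPM, abundances scaled for transcript length and library size, and means are given ± SD over n = 3 libraries per group. The reads recovered from them number 12641850 to 15890630 per library under the KO label and 9794480 to 12122575 under the WT label. Nr1d1, the gene of REV-ERBα, stood at 155 ± 13.9 TPM (KO) and 86.2 ± 18.9 TPM (WT). Its level is higher under the KO label, so the labels could not be checked by it, and every direction below follows the labels as given. Nr1d2, the gene of REV-ERBβ, stood at 68.8 ± 18.2 TPM (KO) and 61.02 ± 10.04 TPM (WT). The deleted exons are not known here, and reads outside them check nothing. Foxp3, which defines Tregs, was measured at 195, 171 and 235 TPM under the KO label, against 451, 664 and 590.2 TPM under the WT label. No label states separate mice for the 3 libraries of a group, so the spread between them, and every p-value, may be technical.

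The 10 genes form a pair of clusters on mm10. On chromosome 3, from 142496934 to 142638008 on the plus strand, lie Gbp5, Gbp7, Gbp3, Gbp2b and Gbp2 in that order. On chromosome 5, from 105014153 to 105293699 on the minus strand, lie Gbp8, Gbp9, Gbp4, Gbp10 and Gbp6. Promoter sequences were at hand for the 5 genes on chromosome 3 and for none of the 5 on chromosome 5. Below are the 250 bases before the start site for each of the 5, from RefSeq on GRCm38.p6, shown because Gbp2b and Gbp2 are neighbours that stand farthest apart in the values that follow. Capitals mark the ISRE core, searched on both strands as GAAA, any 2 bases and GAAA again (TTTC on the opposite strand), and the GAS motif TTCNNNGAA, which is its own reverse complement.
Gbp2b, chr3:142594597-142594846, plus strand: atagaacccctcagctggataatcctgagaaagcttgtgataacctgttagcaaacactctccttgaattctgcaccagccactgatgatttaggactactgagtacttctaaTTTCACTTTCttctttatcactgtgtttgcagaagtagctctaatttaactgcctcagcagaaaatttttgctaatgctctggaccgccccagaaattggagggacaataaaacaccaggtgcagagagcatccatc
Gbp2, chr3:142620413-142620662, plus strand: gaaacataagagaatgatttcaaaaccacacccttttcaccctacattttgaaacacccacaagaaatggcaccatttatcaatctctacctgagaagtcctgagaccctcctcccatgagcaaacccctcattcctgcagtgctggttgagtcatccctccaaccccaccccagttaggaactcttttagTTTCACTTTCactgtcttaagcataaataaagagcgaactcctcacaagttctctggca
Gbp3, chr3:142559794-142560043, plus strand: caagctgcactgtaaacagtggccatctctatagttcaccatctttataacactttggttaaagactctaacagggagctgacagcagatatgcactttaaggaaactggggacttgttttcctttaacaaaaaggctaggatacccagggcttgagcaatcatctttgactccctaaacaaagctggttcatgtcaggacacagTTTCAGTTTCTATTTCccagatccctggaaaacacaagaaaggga
Gbp5, chr3:142496684-142496933, plus strand: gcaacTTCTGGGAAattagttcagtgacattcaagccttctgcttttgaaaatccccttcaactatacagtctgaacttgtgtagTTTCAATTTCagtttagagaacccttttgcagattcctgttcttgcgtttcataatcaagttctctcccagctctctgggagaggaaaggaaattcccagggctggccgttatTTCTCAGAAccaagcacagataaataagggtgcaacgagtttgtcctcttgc
Gbp7, chr3:142530086-142530335, plus strand: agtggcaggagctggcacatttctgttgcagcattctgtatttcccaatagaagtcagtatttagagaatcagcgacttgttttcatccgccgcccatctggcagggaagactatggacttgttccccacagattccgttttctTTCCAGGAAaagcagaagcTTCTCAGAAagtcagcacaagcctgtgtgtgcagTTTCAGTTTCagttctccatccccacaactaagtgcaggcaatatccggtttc

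Every one of the 5 genes held an ISRE core in the stretch shown, which for Gbp3 depends on the start site taken. Among the 32851 promoters of the same set, searched over 300 bases each, 3.44% held one. Gbp2b and Gbp2 carried the same 10 letters, tttcactttc, beginning 137 bases before the start of Gbp2b and 59 bases before the start of Gbp2. Gbp3 held a pair of ISRE cores that overlap each other, beginning 45 and 39 bases before the start site used here. This start site lies 452 bases before the start of the deposited Gbp3 transcript. The other Gbp3 start site lies nearer to it, at 140 bases, and its promoter held none of these motifs. The GAS motif, found in 8.3% of all promoters, occurred in Gbp5 and Gbp7, with 2 copies each. It was not among the letters of the Gbp2b, Gbp2 and Gbp3 windows. The letters AGGTCA, the core of the sites that REV-ERB binds, were not found on either strand in the windows of these 5 genes, against 16.3% of all promoters. A match is a description of the letters and not evidence of binding.

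Across the family, 9 of the 10 genes had all 3 KO values under the lowest WT value, and Gbp2 was the gene whose groups overlapped. Among all 13211 genes tested, 10.4% were separated in that direction. The median difference of the 10 genes was -0.73 on the log2(TPM + 1) scale, KO minus WT, beside -0.003 over all genes tested. In 9 genes the difference was below 0, as in 50.5% of all genes tested. Added together, the 10 genes came to 481, 491 and 621 TPM under the KO label, against 754, 973 and 860 TPM under the WT label (means 531 ± 77.9 TPM in KO against 862.5 ± 110.0 TPM in WT). The summed level under the KO label was thus 61.5% of that under the WT label. The choice of genes rests on these values, and nothing is read from their share.

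**Figure D1:**
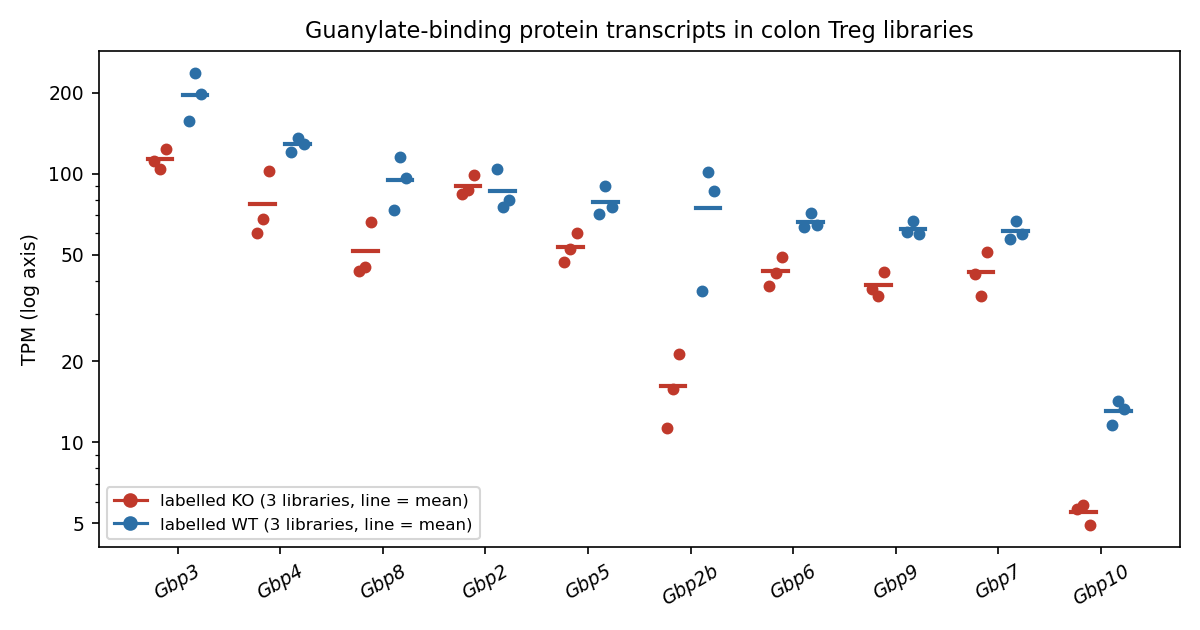
TPM (log axis) of each Gbp gene in the 3 libraries labelled KO (red, left) and the 3 labelled WT (blue, right), with lines at the group means and genes ordered by their mean in the libraries labelled WT. The red and blue points are apart for every gene except Gbp2, and on this log axis the group means lie farthest apart for Gbp2b.

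Gbp2b stood farthest from its WT level. It was known as Gbp1 in mouse before it was renamed, ends in a signal for attachment of a lipid (prenylation), and is recruited to the vacuole of Toxoplasma in mouse cells. Gbp2b (NM_010259, mm10 chromosome 3, 142594847 to 142619176, plus strand) was measured at 11.3, 15.7 and 21.4 TPM under the KO label, against 36.7, 101 and 85.9 TPM under the WT label. These values rest on 269, 410 and 633 reads under the KO label and on 674, 2196 and 1808 reads under the WT label. No library labelled KO reached the lowest labelled WT, but the WT libraries themselves differed, with the highest 2.75 times the lowest. The mean was 16.1 ± 5.03 TPM under the KO label, or 21.6% of the 74.6 ± 33.7 TPM under the WT label. Its difference was -2.06 on the log2 scale (SE 0.378), the largest SE of the family, and -2.50 without the library labelled WT 1.

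Gbp2, the next gene downstream of Gbp2b on the same strand, had overlapping groups. Its protein is also prenylated, is recruited to the vacuole of Toxoplasma and helps to expose cytosolic bacteria such as Francisella in mouse macrophages. Gbp2 (NM_010260, mm10 chromosome 3, 142620663 to 142638008, plus strand) stood at 84.0, 87.1 and 99.1 TPM under the KO label, against 104.1, 75.1 and 79.5 TPM under the WT label. The library labelled WT 1, lowest of its group in 8 of the 10 genes, was the highest for Gbp2. On the log2 scale its difference of 0.07 (SE 0.142) turned to -0.02 without the library labelled WT 2. Gbp2 made up 17.46%, 17.74% and 15.96% of the summed Gbp level in the libraries labelled KO, against 13.81%, 7.71% and 9.24% in those labelled WT. Without it the sum of the other 9 genes was 441 ± 70.0 TPM under the KO label and 776 ± 124.0 TPM under the WT label. Gbp2 and Gbp2b share few stretches of identical sequence. In the GENCODE M21 transcripts, 2.07% of the windows of 50 bases in Gbp2 also occur in Gbp2b, and 1.84% of those in Gbp2b occur in Gbp2.

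The other 3 genes of the chromosome 3 cluster were all lower under the KO label. Gbp3, the most abundant of the 10 genes in both groups, stood at 112, 104 and 123 TPM under the KO label, against 156, 236 and 197 TPM under the WT label. Its mean under the KO label was 57.5% of that under the WT label (-0.78 on the log2 scale, SE 0.156). Gbp5 promotes NLRP3 and AIM2 inflammasome activation in mouse macrophages and is another prenylated member. It was found at 46.9, 52.6 and 60.1 TPM under the KO label, against 71.0, 89.7 and 75.4 TPM under the WT label (-0.56 on the log2 scale, SE 0.133). Gbp7, which in mouse macrophages helps to assemble the NADPH oxidase on vacuoles, had the smallest difference of the 9 lower genes, at -0.51 (SE 0.151). It stood at 42.2, 35.0 and 51.3 TPM under the KO label, against 56.9, 66.9 and 59.4 TPM under the WT label. For Gbp5 and Gbp7, as for Gbp4 and Gbp8 below, the highest library labelled KO lay not far under the lowest labelled WT.

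On chromosome 5 all 5 genes were lower under the KO label. Gbp4, reported in mouse cells to restrain the interferon regulatory factor Irf7, was the second most abundant gene under the WT label. It was measured at 60.1, 68.0 and 102.5 TPM under the KO label, against 120.3, 136 and 129 TPM under the WT label (-0.77 on the log2 scale, SE 0.187). Here the spread lay under the KO label, where the library labelled KO 3 stood well above the other two. Gbp8 gave 43.6, 44.9 and 65.8 TPM under the KO label, against 73.2, 116 and 96.2 TPM under the WT label (-0.87, SE 0.209). Gbp9, a member recruited to the vacuole of Toxoplasma in mouse cells, had the smallest SE of the family. It stood at 37.3, 34.9 and 43.1 TPM under the KO label, against 60.7, 66.8 and 59.5 TPM under the WT label (-0.69 on the log2 scale, SE 0.116).

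Gbp6 and Gbp10 lie next to each other and are near copies. Of the windows of 50 bases in the GENCODE Gbp10 transcript, 70.6% also occur in Gbp6 and 79.2% in the neighbouring gene model Gm43302. For Gbp6 the shares were 62.3% with Gbp10 and 90.2% with Gm43302, over a GENCODE model that is shorter (2604 bases) than the deposited transcript (4303 bases). No source used here says how reads common to both were assigned, so their separate levels are uncertain. Gbp6 was listed at 38.1, 42.8 and 49.0 TPM under the KO label, against 63.1, 71.5 and 64.3 TPM under the WT label (-0.61 on the log2 scale, SE 0.122). Gbp10, the least abundant gene in both groups, was listed at 5.65, 5.85 and 4.93 TPM under the KO label, against 11.6, 14.3 and 13.2 TPM under the WT label. It rests on 168 to 191 reads per library labelled KO and on 267 to 388 per library labelled WT, the fewest of the family. Its difference of -1.11 (SE 0.166) was the second largest. For the other 8 genes the share of windows found in another gene ran from 0.234% in Gbp5 to 21.2% in Gbp8.

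**Figure D2:**
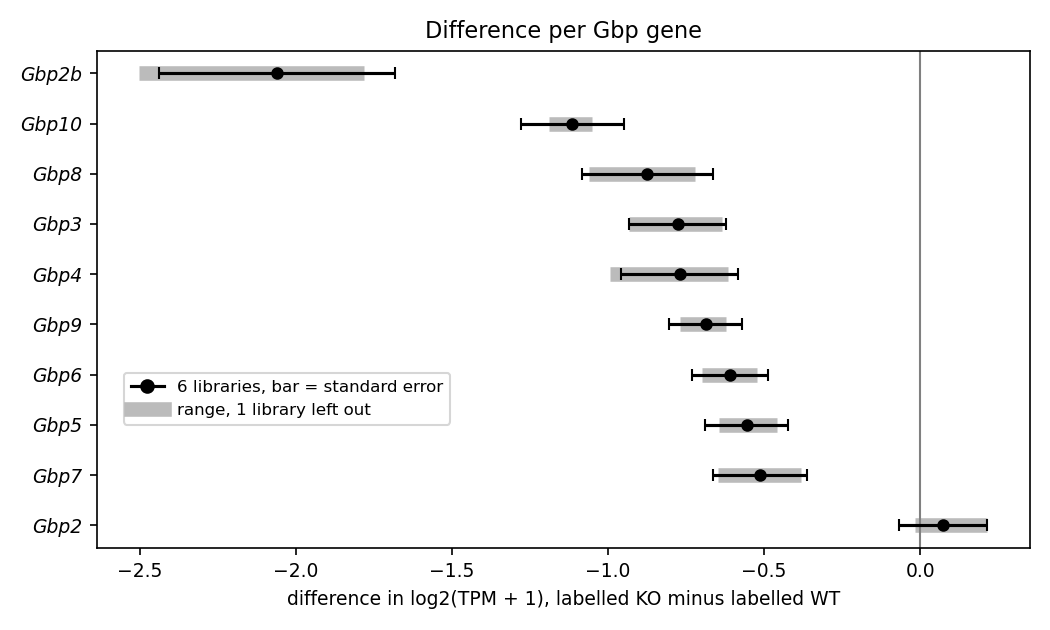
Difference in log2(TPM + 1), labelled KO minus labelled WT, for each Gbp gene, with its standard error from the fit to 6 libraries (bars) and the range of the difference when each library is left out in turn (grey). Gbp2b lies at -2.06, the other lower genes between -1.11 and -0.51, and Gbp2 at 0.07.

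The order of the levels differed between the labels most for Gbp2b, which ranked 9 under the KO label and 6 under the WT label. Gbp2, Gbp8 and Gbp7 ranked 2, 5 and 7 under the KO label and 4, 3 and 9 under the WT label. Under the KO label the order from high to low was Gbp3, Gbp2, Gbp4, Gbp5, Gbp8, Gbp6, Gbp7, Gbp9, Gbp2b and Gbp10. Ranges over libraries were apart between Gbp3 and Gbp2, Gbp4 and Gbp5, Gbp9 and Gbp2b, and Gbp2b and Gbp10, and overlapped between the other neighbours. Under the WT label the order was Gbp3, Gbp4, Gbp8, Gbp2, Gbp5, Gbp2b, Gbp6, Gbp9, Gbp7 and Gbp10. There the ranges were apart between Gbp3 and Gbp4, Gbp4 and Gbp8, and Gbp7 and Gbp10, so the genes from Gbp8 to Gbp7 were not separated from their neighbours. Gbp2b took 2.35%, 3.21% and 3.44% of the summed Gbp level in the libraries labelled KO, and 4.87%, 10.4% and 9.99% in those labelled WT. Both clusters summed to a like share of their WT level. The 5 genes on chromosome 3 summed to 315 ± 34.6 TPM under the KO label and 497 ± 71.9 TPM under the WT label, or 63.4%. The 5 genes on chromosome 5 summed to 215.5 ± 43.6 TPM under the KO label and 365 ± 37.7 TPM under the WT label, or 59.0%.

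Within each label most of the family varied together from library to library. The library labelled KO 3 held the highest KO value of 9 genes, all but Gbp10, and the library labelled WT 2 the highest WT value of 9 genes, all but Gbp2. After each group's mean was taken away, the Pearson correlation of a gene with the mean of the other 9 over the 6 libraries ran from 0.77 (Gbp7) to 0.98 (Gbp8) for 8 genes. It was -0.10 for Gbp10 and -0.31 for Gbp2. These coefficients describe 6 libraries with shared scaling and carry no test. The libraries labelled KO 3 and WT 2 also held the highest sum of T cell markers within their label. These sums were 1752, 1678 and 1965 TPM under the KO label, and 1959, 2287 and 2242 TPM under the WT label. The same libraries held the lowest sum of epithelial markers within their label (2478 TPM in KO 3, 1305 TPM in WT 2). Whether the shared variation follows cell content was not tested.

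Of the 10291 other genes with a mean of at least 5 TPM, those most like the family mean over the 6 libraries were Atp6v0d2, Hbs1l, Phf11a, Mndal, Srrm2, Fam193b, Samhd1 and Bmt2. Their Pearson correlation with it lay between 0.993 and 0.998, and between 0.928 and 0.986 after each group's mean was taken away. The first range is set largely by the gap between the groups, and the part of cell content in the second was not tested. Mndal, a DNA-sensing family gene of the interferon-inducible p200 group, stood at 95.6, 92.3 and 122 TPM under the KO label, against 157, 187 and 164 TPM under the WT label. Samhd1, a nucleotide hydrolase that limits retroviruses, stood at 137, 149.8 and 178 TPM under the KO label, against 214, 245 and 228 TPM under the WT label. Atp6v0d2, a subunit of the vacuolar proton pump, was at 2.95 TPM (KO) against 11.7 TPM (WT) on average. Means under the KO and WT labels were 27.3 and 39.1 TPM for Hbs1l, 6.21 and 9.74 TPM for Phf11a, and 242 and 370 TPM for Srrm2. They were 31.6 and 57.0 TPM for Fam193b, and 9.36 and 12.3 TPM for Bmt2.

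Cell type markers also stood at different levels under the 2 labels. The 8 Treg markers summed to 5337 to 6189 TPM under the KO label and 6942 to 8104 TPM under the WT label, with 6 below 0 (median -0.25 on the log2 scale). All 7 T cell markers of the list were below 0 (median -0.26 on the log2 scale; Cd3e, KO 190.4 ± 29.5 TPM, WT 257 ± 57.0 TPM), and their summed level was 1678 to 1965 TPM under the KO label and 1959 to 2287 TPM under the WT label. All 12 epithelial markers were above 0 (median 0.92), and their sum was 2478 to 4608 TPM under the KO label and 1305 to 2141 TPM under the WT label, with no marker at 0 in every library. Krt8, an epithelial keratin, stood at 718 ± 289 TPM (KO) and 345 ± 68.1 TPM (WT), and the adhesion protein Epcam at 223 ± 54.8 TPM (KO) and 134.5 ± 39.9 TPM (WT). Markers of macrophages and monocytes, cells in which Gbp genes are well known, summed to 786 to 1421 TPM under the KO label and 734 to 1196 TPM under the WT label, with 9 of 10 above 0 (median 0.12). The macrophage growth factor receptor Csf1r stood at 62.0 ± 27.2 TPM (KO) and 50.03 ± 16.7 TPM (WT), and Cd68 at 54.5 ± 20.7 TPM (KO) and 41.6 ± 10.6 TPM (WT), both with overlapping groups. Adgre1, another macrophage marker, stood at 23.7 ± 7.89 TPM (KO) and 22.3 ± 8.48 TPM (WT). Dendritic cell markers summed to 46.1 to 75.5 TPM under the KO label and to 46.3 to 56.9 TPM under the WT label. The dendritic cell marker Flt3 (KO 1.56 ± 0.846 TPM, WT 2.27 ± 0.921 TPM) was low in both groups. Zbtb46 (KO 26.6 TPM, WT 19.95 TPM) and Itgax (KO 26.3 TPM, WT 23.4 TPM) of the same list stood higher, with overlapping groups. The CD8 T cell marker Cd8a (KO 0.508 ± 0.391 TPM, WT 0.491 ± 0.275 TPM) was low in both groups, and Cd8b1 stood at 5.32 TPM (KO) and 6.36 TPM (WT). Of the 7 neutrophil markers, 5 were at 0 in at least 1 library, and their sum was 14.1 to 42.8 TPM under the KO label and 4.35 to 11.7 TPM under the WT label. Fibroblast and endothelial markers tested were all above 0 (medians 0.25 and 0.27), and the medians were -0.04 for B and plasma cells and -0.02 for NK and CD8 T cells. The B and plasma cell markers summed to 2312, 1554 and 723 TPM under the KO label, and to 1748, 1702 and 908 TPM under the WT label. Most of this was Jchain, at 1966, 1258 and 492 TPM under the KO label and 1431, 1383 and 667 TPM under the WT label. The 4 neutrophil markers tested were all above 0 (median 1.73). At an unadjusted limma p under 0.05 were 10 of 12 epithelial, 4 of 8 Treg, 4 of 7 T cell and 3 of 4 neutrophil markers tested. Among all genes tested 15.7% were at this level. The macrophage, dendritic cell, B cell, fibroblast and endothelial lists held 0 such genes. In the NK and CD8 T cell list, 1 of 7 genes tested was at this level. It was Gzma, a granule protease of killer cells, at 47.1, 43.0 and 25.1 TPM under the KO label, against 23.0, 8.31 and 15.3 TPM under the WT label (1.31, SE 0.361, limma adjusted p = 0.1954).

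Relative to the summed T cell markers, the summed Gbp level came to 27.5%, 29.2% and 31.6% under the KO label, against 38.5%, 42.6% and 38.4% under the WT label. The groups stayed apart on this scale, but the log2 ratio of KO to WT was -0.43 in place of -0.70. The family was chosen by its gap between the labels, so nothing is read from the groups staying apart. In bulk libraries fewer cells of a type and less RNA per cell cannot be told apart, and the part of other cells in the Gbp differences beyond this ratio was not tested.

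**Figure D3:**
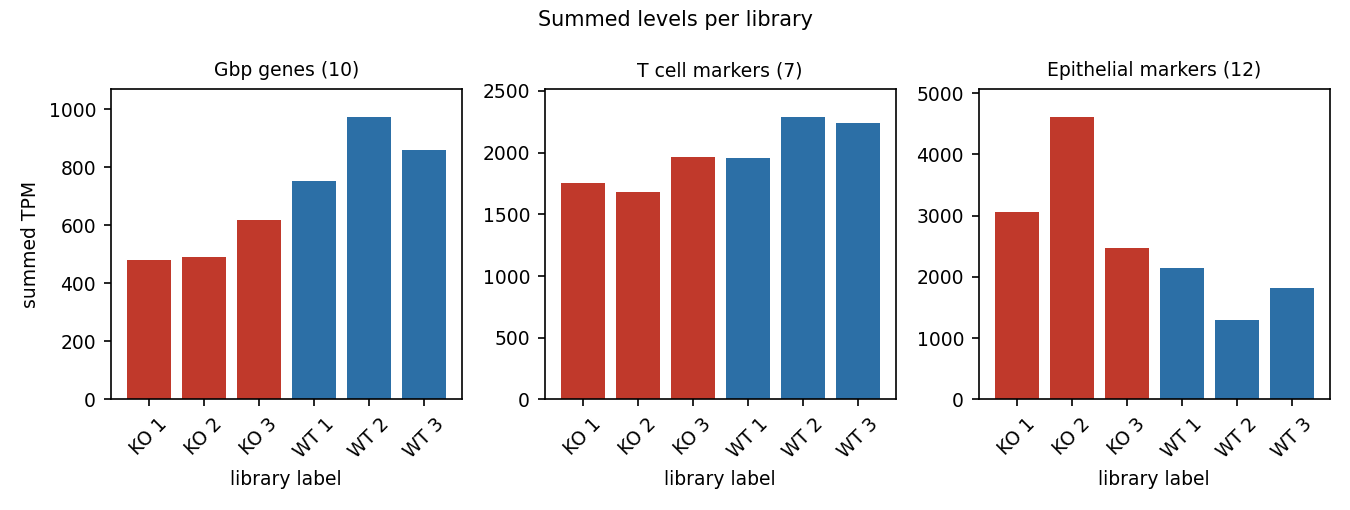
Summed TPM per library (bars start at 0) of the 10 Gbp genes, the 7 T cell markers and the 12 epithelial markers, in the libraries labelled KO (red) and WT (blue). The Gbp sum is 481 to 621 TPM under the KO label and 754 to 973 TPM under the WT label, the T cell sums overlap slightly, and the epithelial sums run the other way.

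The genes that lead to Gbp transcription, the other targets of interferon and genes that act with Gbp proteins were then tested. None of them passed limma's moderated test with Benjamini-Hochberg adjustment over all 13211 genes, where 0.0% of genes were called higher and 0.0% lower. At an unadjusted p under 0.05 the test held 2068 genes (15.7%), 7.8% higher and 7.86% lower under the KO label, and voom on the recovered reads also called 0 genes (2177 at an unadjusted p under 0.05). Without the library labelled WT 1 limma called 14 genes, among them Il6st and Foxp3 of the lists used here. The lists are described by their medians and by counts at that unadjusted level.

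The ligand, receptor and signalling genes of interferon gamma had a median difference of -0.12 over 18 genes, with 12 below 0 and 6 above, beside -0.728 for the Gbp genes. This median was -0.064 without the library labelled KO 3 and -0.077 with voom. At the unadjusted level 1 was higher and 2 were lower. Ifng, the ligand, stood at 40.1, 41.0 and 18.3 TPM under the KO label, against 43.4, 14.1 and 12.9 TPM under the WT label, so the groups overlapped. Ifngr2 stood at 46.3 ± 6.57 TPM under the KO label and 33.5 ± 4.57 TPM under the WT label (0.45, SE 0.149, limma adjusted p = 0.2305), and Ifngr1 at 892 ± 143 TPM (KO) and 1096 ± 112 TPM (WT). Irf1, the factor that binds the ISRE, stood at 199 ± 9.64 TPM under the KO label and 246 ± 19.9 TPM under the WT label, with no overlap of the groups (-0.30, SE 0.098, limma adjusted p = 0.2293). Stat2, a factor of the type I interferon response, stood at 31.0 ± 3.19 TPM (KO) and 45.3 ± 4.37 TPM (WT) (-0.53, SE 0.126, limma adjusted p = 0.1591).

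The list of T helper 1 genes and cytokine receptors upstream of interferon gamma had a median of -0.09 over 11 genes tested, with 4 lower and 0 higher at the unadjusted level. Cxcr3, the chemokine receptor of Th1-type T cells, had the smallest adjusted p of any gene in the 8 pathway lists. It stood at 34.2, 41.1 and 41.2 TPM under the KO label, against 76.5, 86.1 and 84.1 TPM under the WT label (-1.07, SE 0.114, limma adjusted p = 0.0678). Il6st, the shared receptor chain gp130 that IL-27 uses, stood at 84.1 ± 0.945 TPM (KO) and 205 ± 59.5 TPM (WT) (-1.23, SE 0.204, limma adjusted p = 0.1192), and passed the threshold without the library labelled WT 1. Tbx21, which encodes the Th1 factor T-bet, stood at 10.97 ± 1.43 TPM (KO) and 17.1 ± 2.22 TPM (WT) (-0.60, SE 0.166, limma adjusted p = 0.1954). The median of this list was -0.27 without the library labelled KO 1.

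Other interferon-inducible GTPases had a median of -0.32, with 8 of 10 below 0, and 4 lower and 0 higher at the unadjusted level. Iigp1, an immunity-related GTPase of the parasite vacuole, stood at 46.3 ± 4.29 TPM under the KO label and 64.3 ± 5.09 TPM under the WT label (-0.47, SE 0.114, limma adjusted p = 0.1622). Igtp, a regulator of the same family, stood at 238 ± 20.01 TPM (KO) and 301 ± 18.9 TPM (WT) (-0.34, SE 0.102), and the very large GTPase Gvin1 at 5.32 ± 0.859 TPM (KO) and 7.81 ± 0.750 TPM (WT) (-0.49, SE 0.189). Gvin1 maps to 2 places in the genome, and Tgtp1 and Tgtp2 are near copies, so their levels are uncertain. The difference was 0.07 for Irgm1, 0.18 for Tgtp1 and -0.01 for Tgtp2, with overlapping groups in each.

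The remaining interferon gamma targets lay on both sides of 0. Their median was 0.01 over 23 genes tested, or -0.005 with equal TPM totals, with 11 below 0 and 12 above, and 3 were higher and 2 lower at the unadjusted level. Nlrc5, which drives MHC class I genes, stood at 58.0 ± 9.76 TPM under the KO label and 79.6 ± 3.66 TPM under the WT label (-0.46, SE 0.131, limma adjusted p = 0.1963). Batf2, a transcription factor induced by interferon, stood at 9.65 ± 2.86 TPM (KO) and 4.16 ± 1.68 TPM (WT) (1.06, SE 0.292, limma adjusted p = 0.1954), and the tryptophan tRNA synthetase Wars at 50.1 ± 3.29 TPM (KO) and 38.7 ± 3.28 TPM (WT) (0.36, SE 0.111). Type I interferon targets had a median of -0.015 over 20 genes, or 0.035 with voom, with 0 at the unadjusted level in either direction. Among them Oas3, an RNA sensor, stood at 9.998 ± 3.03 TPM (KO) and 7.22 ± 2.70 TPM (WT), Rtp4 at 24.4 ± 2.46 TPM (KO) and 19.9 ± 6.06 TPM (WT), and the RNA helicase Ddx58 at 18.3 ± 1.91 TPM (KO) and 21.3 ± 1.09 TPM (WT).

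Genes of the inflammasomes that Gbp proteins help to activate lay on the other side of 0. Their median was 0.39 over 12 genes tested, with 10 above 0, and 3 were higher and 1 lower at the unadjusted level. Il18 and Il1a, cytokines of this route, stood at 18.3 ± 6.97 TPM (KO) and 8.88 ± 1.47 TPM (WT) (0.91, SE 0.271, limma adjusted p = 0.2113) and at 5.06 ± 1.22 TPM (KO) and 2.09 ± 0.726 TPM (WT) (0.98, SE 0.262, limma adjusted p = 0.1911). Il18 is also a gene of the epithelium, whose markers were higher in the same libraries, and its part was not tested. Casp4, the mouse caspase-11 that senses lipopolysaccharide, stood at 74.1 ± 18.5 TPM (KO) and 60.1 ± 27.3 TPM (WT), with overlapping groups. Gsdmd, the pore-forming protein it cleaves, stood at 72.0 ± 0.749 TPM (KO) and 68.5 ± 2.41 TPM (WT) (0.07, SE 0.088, limma adjusted p = 0.718). Aim2, the sensor of cytosolic DNA, stood at 38.2 ± 2.77 TPM (KO) and 46.5 ± 2.07 TPM (WT) (-0.28, SE 0.106, limma adjusted p = 0.2755). Under the KO label Il1b (204, 400 and 187 TPM) and Nlrp3 (5.40, 14.5 and 6.48 TPM) were highest in the library labelled KO 2. So were the summed macrophage and monocyte markers (829, 1421 and 786 TPM). Casp4 and Aim2 were not highest there, and the part of these cells was not tested.

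The autophagy conjugation genes, which direct Gbp proteins to vacuoles in mouse cells, had a median of -0.06 over 15 genes (-0.103 without the library labelled KO 2, -0.035 without KO 3 and -0.023 with voom), with 0 higher and 1 lower at the unadjusted level. That gene was Atg16l1, at 20.7 ± 0.689 TPM under the KO label and 26.0 ± 0.836 TPM under the WT label (-0.31, SE 0.111, limma adjusted p = 0.2516). Trim21, a ubiquitin ligase of the list, stood at 13.1 ± 1.86 TPM (KO) and 17.7 ± 3.38 TPM (WT), and Atg10 at 5.29 ± 0.846 TPM (KO) and 6.77 ± 0.494 TPM (WT). The enzymes that prenylate and trim the ends of such proteins had a median of 0.05 over 7 genes, with 0 at the unadjusted level in either direction. Their smallest p values belonged to the protease Rce1 (KO 31.4 ± 6.40 TPM, WT 26.7 ± 4.02 TPM), the prenyl-binding Pde6d (KO 29.9 ± 3.09 TPM, WT 34.7 ± 5.79 TPM) and the protease Zmpste24 (KO 34.1 ± 1.92 TPM, WT 30.7 ± 3.88 TPM).

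**Figure D4:**
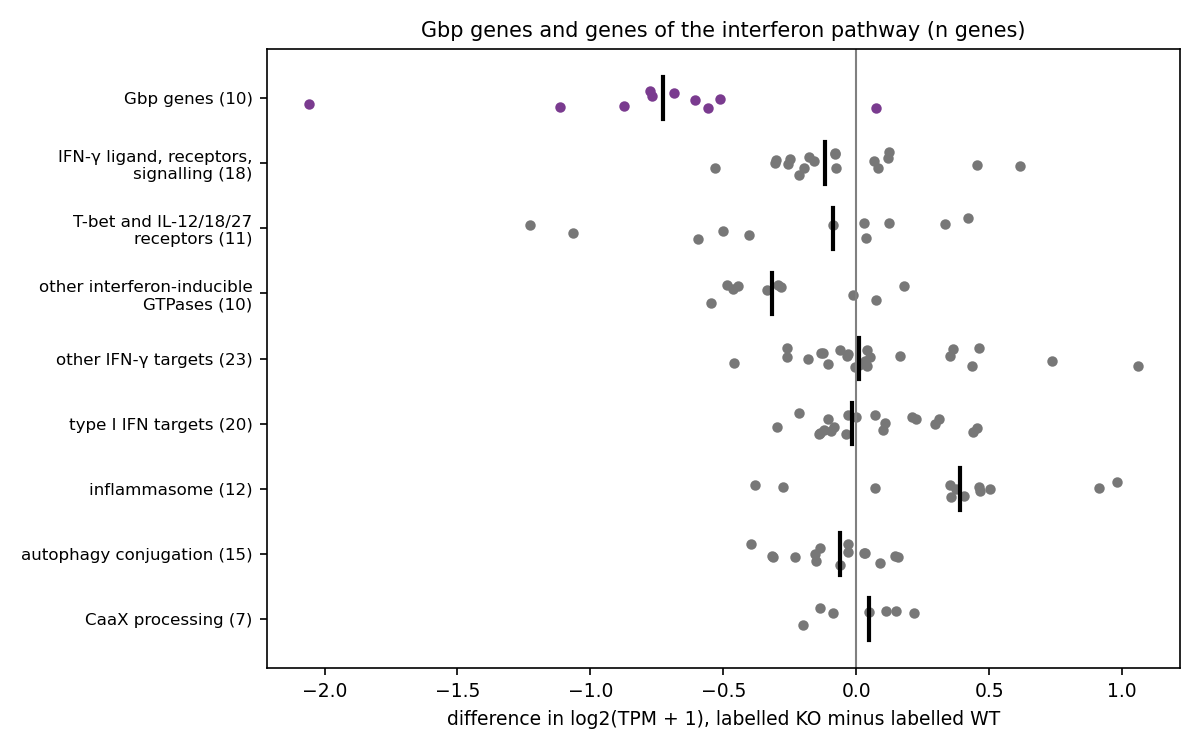
Difference in log2(TPM + 1), labelled KO minus labelled WT, of each gene tested (points, spread vertically for legibility), with the list's median as a black line. The rows are the Gbp family and 8 lists, of interferon genes and of genes that act with Gbp proteins (inflammasome, autophagy conjugation and CaaX processing). The Gbp median is at -0.73, the median of the other interferon-inducible GTPases at -0.32, and that of the inflammasome list at 0.39.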

How the data were processed

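The authors deposited TPM per RefSeq transcript, 1 row per gene symbol, on mm10. The submitters' processing notes name STAR 2.5.3a, HOMER 4.9.1, FastQC 0.11.8 and Trim Galore 0.4.4, without settings. The kit was stranded and poly(A)-selected, with an input of 1.3 µg total RNA, per the labels' protocols. No source used here says whether counting used strand. The deposited TPM values sum to 634200 to 644662 per library. TPM times transcript length was a whole multiple of 1 step per library (100.0% of the values up to 500 reads that were written precisely enough lay within 0.1 of a whole number), which gave the reads.

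Genes with at least 1 TPM in at least 3 of the 6 libraries (13211) were fitted with limma 3.58.1 in R 4.3.3 on log2(TPM + 1), genotype as the only term, with a variance trend, two-sided, Benjamini-Hochberg threshold 0.05. The scale understates changes of low genes. An exact permutation test of 3 against 3 cannot give a p below 0.1. The fit was tested on simulated data. Alternatives were other pseudocounts, filters, scalings and variance models, voom, a replicate block and leaving out each library. The members and lists were chosen with earlier results of these data known. Beside the 10 members, the genes named are the 3 of smallest p per list, further genes of interest (Ifng, Ifngr1, Ifngr2, Irf1, Nlrc5, Casp4 and Gsdmd), the 8 genes most like the family, and defining markers. Some genes under this rule are not reported here. Irgm1, Tgtp1, Tgtp2, Nr1d2, Gzma, Zbtb46, Itgax, Cd8b1, Jchain, Il1b and Nlrp3 were named after their values were seen. The likeness was set on log2(TPM + 1), each member scaled to mean 0 and SD 1. Python 3.11.15 and matplotlib 3.10.9 drew the figures. Promoter windows span 250 bases before to 50 after each RefSeq start (GRCm38.p6). The AGGTCA search and the ratio to T cell markers were added after seeing the data. Windows of 50 bases were compared over all GENCODE M21 transcripts.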

Additional observations from a re-analysis of the deposited data

How the results depend on the processing

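The differences of the 10 Gbp genes were recomputed under 15 alternatives each. Of these 150 values, those under other filters, without a variance trend and with the replicate block had to repeat the main fit. Such settings cannot change the difference of a gene. Among the rest, 1 value reversed and 1 moved by more than the spread between replicates. Gbp2 gave -0.018 without the library labelled WT 2 (from -0.018 to 0.215 over the libraries left out), and Gbp10 gave -0.78 with a pseudocount of 5. The family median ran from -0.806 to -0.636 as each library was left out, and 9 or 10 members were below 0. The summed level ran from -0.828 to -0.604, and was -0.435 relative to the T cell markers, an alternative chosen after seeing the data.

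Leaving out single libraries gave 0 to 14 called genes in all, with 14 without the library labelled WT 1, and 0 to 1 in the list of T helper 1 genes and receptors, whose median ran from -0.267 to -0.015. That median was -0.244 with the higher filter of 5 TPM. The median of the interferon gamma signalling list ran from -0.163 to -0.064 and that of the autophagy list from -0.103 to -0.035. The median of the other GTPases ran from -0.418 to -0.261. The medians near 0 changed sign. For the other interferon gamma targets the median was -0.005 with equal TPM totals and ran from -0.053 to 0.09, for the type I targets it was 0.035 with voom and ran from -0.112 to 0.129, and for the prenylation enzymes it ran from -0.017 to 0.114. The cause was not tested.

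Libraries with the same replicate number were not paired, since no label states a pairing. Deviations of same-numbered libraries correlated at 0.004, -0.219 and -0.041, beside -0.119 to 0.162 for libraries of unlike number. With 3 libraries per group such values cannot exclude a pairing. The replicate block cannot change the family median of -0.728, and 0 genes were called with it. Gbp10 has the fewest reads (168 to 388 per library), which limits its precision.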

Other observations

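Gbp11, next to Gbp6 on chromosome 5, is annotated in RefSeq as a transcribed pseudogene and stood below the filter on low values. It was listed at 0.658, 0.599 and 1.02 TPM under the KO label (15, 15 and 29 reads), against 0.340, 0.768 and 0.247 TPM under the WT label (6, 16 and 5 reads), with overlapping groups.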
